A study of Homo sapiens with 16 samples.

Results

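HEK293T cells, an established line of human embryonic kidney origin with the large T antigen of SV40, were compared after treatment with JQ1 and after treatment with pinometostat, with 4 sequenced libraries for each compound. The contrast took 8 of the 16 libraries of the series and all genes with enough reads for a test, 16417 of 57500. Every library in it came from cells with a lentiviral vector for histone H2A. The JQ1 cells received 1 µM for 3 h and the pinometostat cells 2.5 µM for 24 h, so compound, dose and time differ together and cannot be told apart. A treatment text in the labels gives pinometostat in millimolar where the field of each sample gives micromolar, and the sample field was used. The 4 H2A libraries with DMSO, the solvent, did not enter the main test and were used only in a check that fitted all 16 libraries. DMSO levels are given beside the contrast as values, and the labels give no time for the DMSO samples. The labels do not say whether the 4 libraries of a group came from separate cultures, so p-values measure the spread between these libraries, which may be technical.

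JQ1 is a small molecule that occupies the acetyl-lysine pocket of BET bromodomain proteins such as BRD2 and BRD3 and displaces them from acetylated chromatin. BET proteins help to bring the kinase P-TEFb (CDK9 with a cyclin T) to promoters, and P-TEFb releases paused RNA polymerase II. HEXIM1 holds P-TEFb in an inactive complex with the 7SK RNA, and its transcript is widely used as a marker of BET inhibition. Pinometostat (EPZ-5676) inhibits DOT1L, the only known enzyme that methylates lysine 79 of histone H3, a mark laid down along transcribed genes. The mark is lost slowly, through dilution and turnover of histones, and HOXA9 and MEIS1 are known targets of DOT1L in leukaemias with rearranged KMT2A.

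The libraries held 17779692 to 21709716 counts with JQ1 and 20540965 to 22873652 with pinometostat. JQ1 replicate 1 stood apart from the other 7 libraries. Mitochondrial genes took 16.5% of its counts, while JQ1 replicates 2 to 4 had 3.04% to 3.69% and pinometostat libraries 4.43% to 5.04%. The mean difference in that share was 2.01 percentage points (exact permutation test, two-sided, p = 1.0, where 4 against 4 allows no p below 0.0286), and -1.28 without this library. The first principal component of the 8 libraries took 49.7% of the variance. Results that rest on this library are given with and without it, and the part of its mitochondrial share in them was not tested. In bulk RNA, fewer cells of a type and less RNA per cell cannot be told apart. Markers of blood, endothelium and hepatocytes were near 0, with sums of at most 4.56, 1.4 and 0.487 CPM (counts scaled to the same library total). The 6 markers of mature kidney tubule summed to 12.3 to 25.8 CPM with JQ1 and 21.3 to 24.6 with pinometostat. Of these, UMOD, AQP2 and SLC34A1 were at 0 in all 8 libraries. Epithelial markers summed to 65.1 to 85.8 CPM.

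The contrast between the treatments was broad. edgeR's quasi-likelihood test, with Benjamini-Hochberg adjustment over all 16417 genes and an adjusted p below 0.05, called 4820 genes (29.4%). Of these, 2442 (14.9%) were higher and 2378 (14.5%) lower in JQ1 than in pinometostat. The totals were nearly even, while large differences lay mostly on the lower side: 271 genes (1.65%) were higher in JQ1 by at least 1 on the log2 scale and 813 (4.95%) were lower by at least as much. The median difference was 0.62 among genes called higher, -0.80 among genes called lower and 0.01 over all genes tested. The 4 libraries of each compound did not overlap in 5645 genes (34.4%), with JQ1 above in 2731 (16.6%) and below in 2914 (17.7%). Without JQ1 replicate 1 the count rose to 8514 of 16710 genes tested (51%), with 4337 higher (26%) and 4177 lower (25%), and 4816 of the 4820 calls kept their direction and their call. List counts without that library, given below where they moved by more than 1.5 times, stand against these larger shares of all genes and not against 14.9% and 14.5%. Scaling by library size alone left 30.9% of the called genes higher in JQ1, upper quartile scaling 34.2% and limma on log2(TPM + 1) 24.0%, against 50.7% with TMM. The plot of all genes tested shows the called genes by level and difference.

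**Figure D1:**
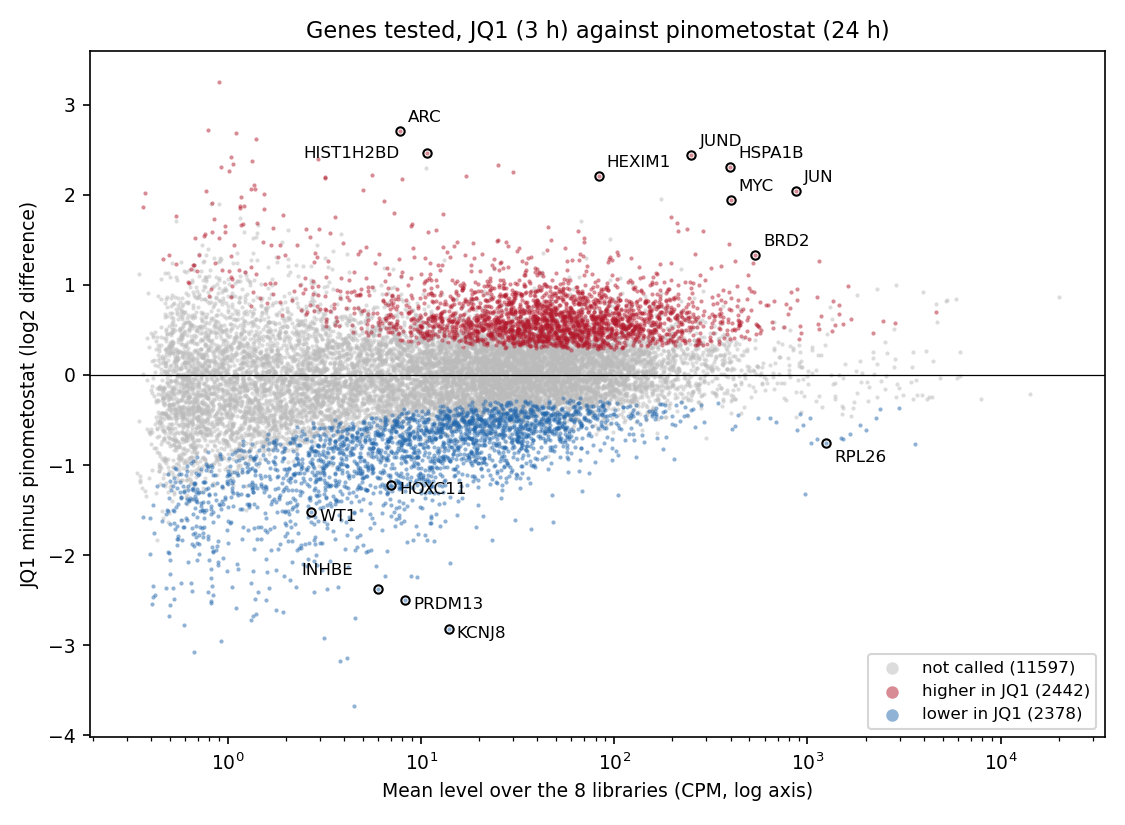
Log2 difference (JQ1 minus pinometostat) against the mean level over the 8 libraries (CPM, log axis), 1 point per gene tested; red and blue points are the 2442 genes called higher and the 2378 called lower in JQ1, grey points were not called. Genes lower in JQ1 by more than 1 outnumber those higher by more than 1, and many of them have low levels.

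The solvent libraries show on which side of the solvent level each group lay. The DMSO mean was between the JQ1 and the pinometostat mean for 2167 of the 2442 genes called higher (88.7%) and for 1737 of the 2378 called lower (73.0%), against 50.2% of all genes tested. It was nearer to pinometostat in 219 of the 271 genes higher by at least 1 (80.8%) and in 695 of the 813 lower by at least 1 (85.5%). Among all genes called higher, whatever the size of the difference, the DMSO mean was nearer to pinometostat in 50.2% and nearer to JQ1 in 49.8%. Among all genes called lower these shares were 67.4% and 32.6%. Counts of this kind given for gene lists below stand against these shares. For 364 genes (2.22%) the 12 libraries fell in the order JQ1, DMSO, pinometostat with no overlap, and for 213 (1.3%) in the reverse order. DMSO stood above both compounds, with pinometostat in the middle and no overlap, in 119 genes. These are descriptions of levels, since the main test used no DMSO library and each called gene was chosen by its difference.

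The genes highest in JQ1 relative to pinometostat included a regulator of transcription elongation, immediate-early genes, histone genes and heat shock genes. HEXIM1 (ENSG00000186834; chromosome 17, 45148502 to 45152101), the P-TEFb inhibitor, had 211, 117, 107 and 110.0 CPM in JQ1 replicates 1 to 4 and 27.7, 32.7, 27.1 and 30.5 in pinometostat replicates 1 to 4. Every JQ1 library was above every pinometostat library, and the difference was 2.21 ± 0.22 (log2 ± SE, edgeR adjusted p = 0.00026; 1.93 without JQ1 replicate 1). The DMSO libraries, at 28.6 to 38.4 CPM, overlapped with the pinometostat range. SERTAD1 (ENSG00000197019; chromosome 19, 40421592 to 40426025), a coactivator of E2F factors, had 47, 40.2, 40.9 and 38.5 CPM with JQ1 and 10.4, 8.1, 8.24 and 6.3 with pinometostat, a difference of 2.33 ± 0.16 (edgeR adjusted p = 4.56e-05). GADD45B (ENSG00000099860; chromosome 19, 2476122 to 2478259), a stress-inducible regulator of MAP kinases, had 77.4, 41.7, 43.2 and 36.5 against 9.79, 9.74, 11.4 and 10.8 CPM, a difference of 2.25 ± 0.23 and 1.97 without JQ1 replicate 1. Groups that do not overlap were a condition for the genes named as highest, so the separation in these 3 is no result. FAM222A (2.17 ± 0.14) and VASN (2.06 ± 0.21), a membrane protein that binds TGF-beta, completed the genes outside larger groups.

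All 10 genes in the list of BET inhibitor markers were called higher in JQ1, with a median difference of 1.79 against 0.01 over all genes, and in all 10 the DMSO mean was nearer to pinometostat than to JQ1. The smallest differences of the list were those of SERPINI1, a serine protease inhibitor (0.47 ± 0.13), and ZCCHC24 (0.70 ± 0.13). SERPINI1 had 12.3, 12.2, 12.5 and 11 CPM with JQ1 and 8.92, 8.59, 9.82 and 7.33 with pinometostat, and kept its call in 12 of 20 other settings. The list was assembled as markers of this inhibitor class and with earlier results of these data known, so its direction is no independent evidence.

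The promoter of HEXIM1 is printed as the region before the start of a widely used BET inhibitor marker. It comes from RefSeq (GRCh38.p14, chr17:45148225-45148474, plus strand) and holds the 250 bases before the RefSeq start, 5′ to 3′, with matches on either strand to the TATA box (TATAAA), the CCAAT box (CCAAT) and the GC box (GGGCGG) in capitals.
HEXIM1: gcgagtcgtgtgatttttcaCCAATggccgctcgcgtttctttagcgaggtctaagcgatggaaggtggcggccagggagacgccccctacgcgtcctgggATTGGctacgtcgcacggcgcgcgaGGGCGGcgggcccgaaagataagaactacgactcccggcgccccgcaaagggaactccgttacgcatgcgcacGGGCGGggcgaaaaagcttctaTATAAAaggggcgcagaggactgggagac
A TATAAA match begins 29 bases before the start, and GGGCGG matches begin 124 and 51 bases before it. TATAAA occurs in 5.33% of the 11884 tested genes with such a window and GGGCGG in 67.4%.

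Genes of the BET, 7SK and P-TEFb machinery were themselves among the called genes. Of 17 tested, 6 were higher and 3 lower in JQ1 (median 0.29), and 10 and 5 without JQ1 replicate 1. BRD2 (ENSG00000204256; chromosome 6, 32968660 to 32981505) had 917, 718, 736 and 690.3 CPM in the JQ1 libraries and 293, 323, 281 and 321 in the pinometostat libraries. The DMSO libraries lay between the groups at 330.0 to 403, and the 3 groups did not overlap. The difference was 1.33 ± 0.12 (edgeR adjusted p = 0.000201). BRD3 differed by 0.67 ± 0.09. CDK9, the kinase of P-TEFb, had 118, 108, 98.5 and 99.4 CPM with JQ1, 49.5, 54.3, 52.7 and 51.4 with pinometostat and 60.6 to 72.4 with DMSO, again without overlap. MEPCE, which caps the 7SK RNA, was higher by 0.86 ± 0.11 and had the same order of groups. The 3 lower genes were HEXIM2 (-0.68 ± 0.22), the cyclin CCNT2 (-0.46 ± 0.12) and the CDK-activating subunit MNAT1 (-0.37 ± 0.10).

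Most called elongation factors were higher as well. Of 22 tested, 10 were higher in JQ1 and 1, ELL3 (-0.68 ± 0.18), was lower (median 0.28), with 13 and 3 without JQ1 replicate 1. POLR2A, the large subunit of RNA polymerase II, had 166, 263, 288 and 255 CPM with JQ1 and 136, 123, 92.2 and 125 with pinometostat (1.03 ± 0.18, edgeR adjusted p = 0.00266), and its DMSO libraries spanned 126 to 185. The PAF1 complex members CTR9 (0.98 ± 0.14) and RTF1 (1.3 ± 0.33), the elongation factor SUPT6H (0.76 ± 0.12), and NELFB (0.65 ± 0.11), a subunit of the pausing factor NELF, were also higher. In 7 of the 11 called elongation genes the DMSO mean was nearer to JQ1 than to pinometostat.

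The transcript of the target of pinometostat did not pass the test with all 8 libraries. DOT1L (ENSG00000104885; chromosome 19, 2164149 to 2232578) had 85, 98.3, 83.2 and 76.1 CPM with JQ1, 65.2, 78.3, 55.6 and 75.5 with pinometostat and 60.5 to 104 with DMSO, a difference of 0.32 ± 0.13 (edgeR adjusted p = 0.0989). Its groups overlapped, and without JQ1 replicate 1 it was called higher in JQ1, with a difference of 0.33 (edgeR adjusted p = 0.00907). Pinometostat blocks the activity of the enzyme, so its transcript does not report on inhibition. Of 15 genes for DOT1L and its partners, 4 were higher in JQ1 and 1 lower, and 9 and 1 without JQ1 replicate 1. The higher genes were MEN1 (0.65 ± 0.11), which encodes menin, PSIP1 (0.64 ± 0.16), MLLT1 (0.50 ± 0.12), which encodes the histone reader ENL, and the histone H2B ubiquitin ligase RNF40 (0.51 ± 0.16). MLLT10, whose protein AF10 is the cofactor of DOT1L for higher methylation states, was lower in JQ1, with 17.5, 26.8, 31.4 and 27.9 CPM against 42.8, 39, 43.1 and 38.3 (-0.65 ± 0.16, edgeR adjusted p = 0.0132). Its DMSO libraries, at 29.1 to 36.4, overlapped with JQ1 and lay below all pinometostat libraries. In 4 of these 5 called genes DMSO was nearer to JQ1.

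**Figure D2:**
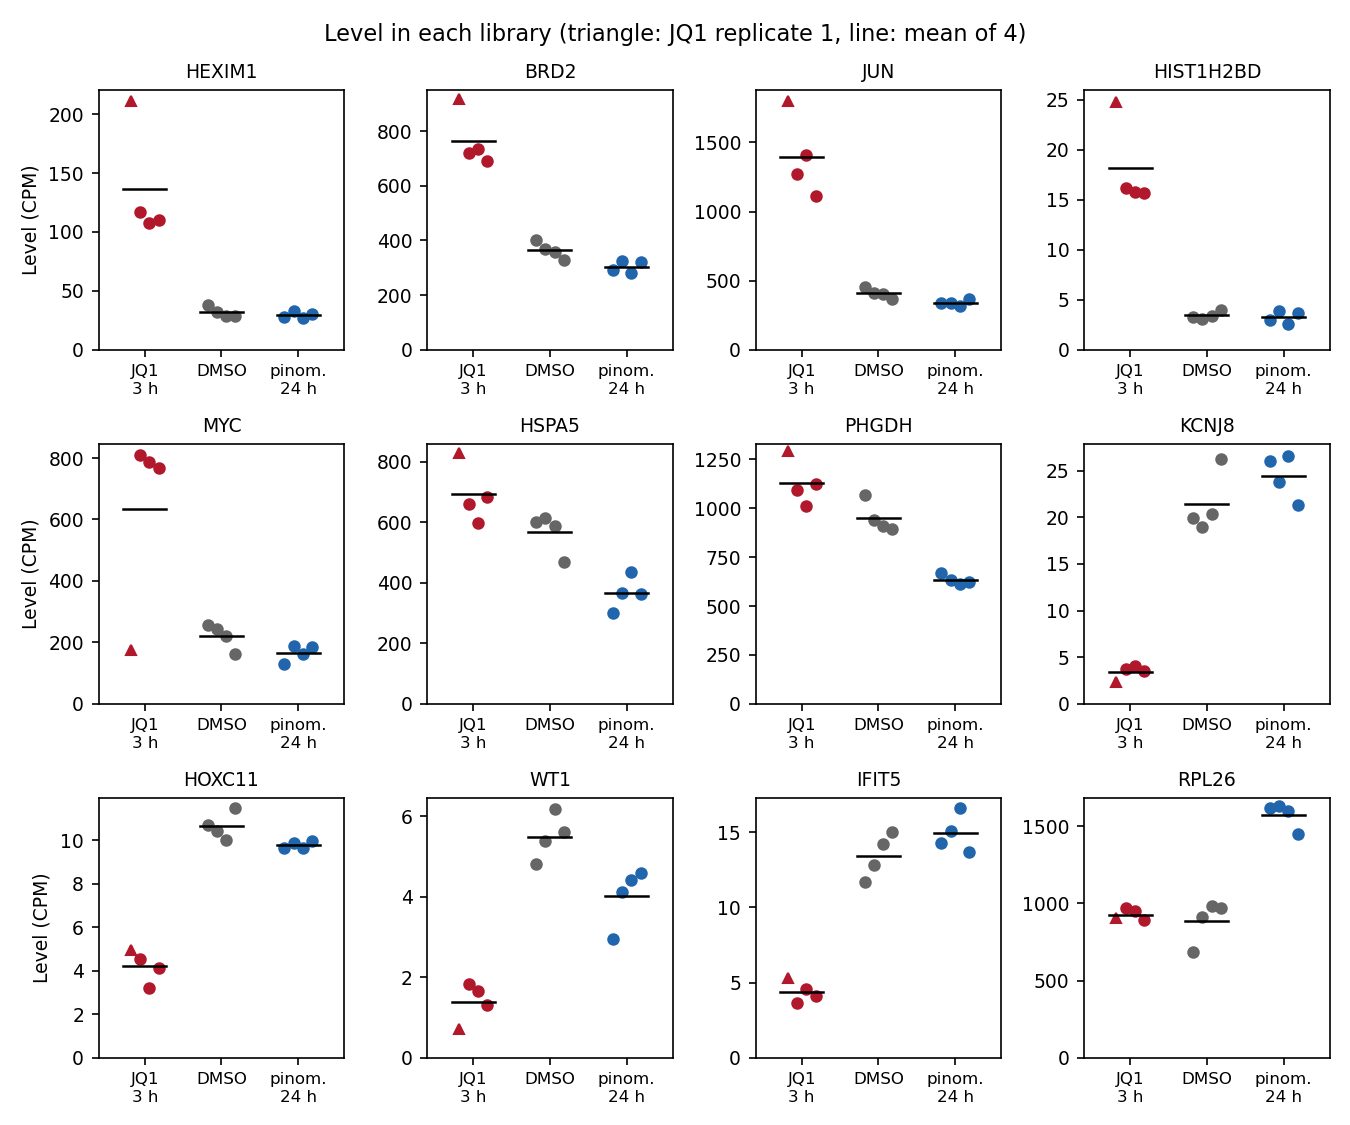
Level (CPM) of 12 genes in each of the 4 JQ1, 4 DMSO and 4 pinometostat libraries; points are libraries, triangles JQ1 replicate 1, and lines group means, with axes from 0. DMSO sits beside pinometostat for HEXIM1, JUN, HIST1H2BD, MYC, KCNJ8, HOXC11 and IFIT5, and beside JQ1 for RPL26.

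Histone genes were higher in JQ1 in large number. Replication-dependent histone genes are clustered, are transcribed in S phase and yield mRNAs that end in a stem-loop and mostly lack a poly(A) tail, while some have polyadenylated forms. Which of these forms the counts here come from was not tested. Of 34 that passed the filter, out of 69 listed, 21 were higher in JQ1 and 1, HIST1H2BH (-1.04 ± 0.34), was lower. The median difference was 1.22, and 0.86 without JQ1 replicate 1. The list took 0.0350% ± 0.00236 of all counts with JQ1 and 0.0199% ± 0.000751 with pinometostat (SD, n = 4; exact permutation test, two-sided, p = 0.0286, the smallest this design allows; 0.0571 adjusted over 6 measures).

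HIST1H2BD (ENSG00000158373; chromosome 6, 26158146 to 26171349) had 24.8, 16.2, 15.8 and 15.7 CPM with JQ1 and 2.96, 3.89, 2.59 and 3.64 with pinometostat. Its DMSO libraries, at 3.12 to 4, covered much of the pinometostat range, and the difference was 2.46 ± 0.20 (edgeR adjusted p = 0.000135). HIST1H2AC (ENSG00000180573; chromosome 6, 26124145 to 26139116) had 23.7, 28, 36.2 and 24.6 against 7.31, 4.75, 7.62 and 4.8 CPM (2.20 ± 0.21). Here pinometostat was above DMSO too, whose libraries reached 3.64 to 4.64 CPM, so that the 3 groups were apart. The members called higher ranged from HIST3H2A (0.56 ± 0.17), whose groups overlapped, to HIST1H2BE (2.71 ± 0.59), at 0.0818 to 0.431 CPM with pinometostat. HIST2H2AA3 and HIST2H2AA4 are near-identical copies, as are HIST2H4A and its twin, and reads of such copies may have been split between them, so their separate values are uncertain.

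Both H2A and H2B promoters are shown since the list moved together. They are the 250 bases before the RefSeq start (GRCh38.p14, HIST1H2BD at chr6:26157871-26158120 and HIST1H2AC at chr6:26123922-26124171, both plus strand), 5′ to 3′, with matches on either strand to the TATA box (TATAAA), the CCAAT box (CCAAT) and the octamer (ATTTGCAT) in capitals.
HIST1H2BD: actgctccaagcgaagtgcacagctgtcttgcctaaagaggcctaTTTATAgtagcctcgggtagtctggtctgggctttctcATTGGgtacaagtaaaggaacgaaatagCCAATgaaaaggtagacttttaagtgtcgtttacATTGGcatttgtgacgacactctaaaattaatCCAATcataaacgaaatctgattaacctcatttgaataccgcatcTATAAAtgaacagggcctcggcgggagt
HIST1H2AC: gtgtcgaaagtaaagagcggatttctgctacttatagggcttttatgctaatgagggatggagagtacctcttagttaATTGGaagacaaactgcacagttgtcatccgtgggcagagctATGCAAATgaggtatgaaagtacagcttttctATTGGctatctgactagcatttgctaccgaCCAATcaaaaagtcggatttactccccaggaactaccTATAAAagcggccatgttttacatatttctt
The TATAAA match nearest the start begins 28 bases before it in HIST1H2BD and 31 bases in HIST1H2AC. CCAAT matches number 4 in the former and 3 in the latter, and HIST1H2AC has the octamer ATTTGCAT, read on the other strand, from 130 bases before the start. Of 29 histone promoters matched, 62.1% held TATAAA, 82.8% CCAAT and 44.8% ATTTGCAT, against 5.33%, 34.9% and 1.3% of the 11884 tested genes with a window. Over 27305 RefSeq windows these shares were 11.1%, 33% and 1.66%.

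Variant histones, whose genes lie outside the clusters and give polyadenylated mRNAs, went the same way with smaller steps. Of 11 tested, 6 were higher in JQ1 and 0 lower by edgeR (median 0.37). H2AFX, the variant phosphorylated at DNA breaks, had 506, 326, 306 and 298 CPM with JQ1, 102, 121, 129 and 116 with pinometostat and 149 to 168 with DMSO. The 3 groups did not overlap, and the difference was 1.62 ± 0.18 (edgeR adjusted p = 0.000368; 1.42 without JQ1 replicate 1). H3F3B, which encodes the replacement histone H3.3, differed by 0.78 ± 0.10 and the linker histone gene H1FX by 1.19 ± 0.24, the latter 0.84 without JQ1 replicate 1. H2AFV (0.37 ± 0.10) and H2AFY (0.34 ± 0.11) passed narrowly. H2AFZ (0.02 ± 0.12), H2AFY2 (0.19 ± 0.10) and H2AFJ (0.65 ± 0.26) did not pass. Without JQ1 replicate 1, H2AFY2 was called at 0.20 and H2AFJ at 0.27 (edgeR adjusted p = 0.0452 and 0.0261). The vector encodes an H2A whose sequence is not given in the sources used here, so reads of the vector cannot be told from those of H2A genes.

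Immediate-early genes, many of which encode transcription factors, are induced within minutes of a stimulus without new protein synthesis. The called ones split into a large higher and a small lower group. Of 30 tested, 13 were higher in JQ1 and 3 lower, with a median of 0.47. Without JQ1 replicate 1, 14 of 32 were higher and 5 lower, with a median of 0.23. In all 16 called genes the DMSO mean was nearer to pinometostat. JUN (ENSG00000177606; chromosome 1, 58780788 to 58784327), a subunit of AP-1, had 1801, 1268, 1412 and 1111 CPM with JQ1 and 340.5, 340.1, 316 and 366 with pinometostat. All DMSO libraries, at 370.4 to 453, were above the pinometostat libraries and below the JQ1 libraries, and the difference was 2.04 ± 0.16 (edgeR adjusted p = 0.000118). JUND had 791, 320.0, 332 and 253 against 83.3, 80.1, 72.2 and 76.4 CPM (2.44 ± 0.32; 1.96 without JQ1 replicate 1, the highest library).

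ARC (ENSG00000198576; chromosome 8, 142611044 to 142614472), best known as an activity-induced gene of neurons, had the largest difference among the 12 highest genes. It stood at 18.3, 14, 11.3 and 10.6 CPM with JQ1 and 1.91, 1.96, 1.58 and 2.74 with pinometostat (2.71 ± 0.23, edgeR adjusted p = 0.000135), and DMSO spanned 1.62 to 4.43. EGR1 (1.68 ± 0.17), FOS (1.80 ± 0.21), IER2 (1.52 ± 0.25), IER5 (1.26 ± 0.14), FOSB (1.27 ± 0.21) and JUNB (1.05 ± 0.19) were higher as well. The lower genes were the AP-1 subunit FOSL1 (-1.24 ± 0.29), MAFF (-0.60 ± 0.19) and the mRNA-decay factor ZFP36L1 (-0.51 ± 0.12). For FOSL1 and ZFP36L1 the DMSO libraries were above both compounds.

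Among 15 feedback genes of the ERK pathway, 5 were lower in JQ1 and 2, DUSP1 (0.73 ± 0.20) and DUSP14 (0.72 ± 0.15), were higher, while 8 did not pass (median -0.36). Lower genes made up 33.3% of the list and 14.5% of all genes tested. SPRY2, which dampens receptor tyrosine kinase signals, had 5.17, 7.62, 5.95 and 5.52 CPM with JQ1 and 13.5, 12.7, 12.3 and 14.1 with pinometostat (-1.11 ± 0.15), and SPRY1 differed by -1.17 ± 0.22. DUSP2, a phosphatase of MAP kinases, was low throughout, at 0.55 to 1.15 CPM with JQ1 and 3.23 to 3.69 with pinometostat (-2.27 ± 0.25, edgeR adjusted p = 0.000394). In all 7 called genes DMSO was nearer to pinometostat.

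MYC, a transcription factor whose transcript falls after BET inhibition in many blood cancers, was higher in JQ1 here. MYC (ENSG00000136997; chromosome 8, 127735434 to 127741434) had 176, 809.9, 788 and 767 CPM in JQ1 replicates 1 to 4, 128, 188, 163 and 183 with pinometostat and 161 to 256 with DMSO. Replicates 2 to 4 were far above all other libraries, and replicate 1 lay inside the pinometostat range, so that the groups overlapped. The difference was 1.94 ± 0.39 (edgeR adjusted p = 0.00498), and 2.26 without replicate 1. Of 13 genes of the MYC network, 5 were higher in JQ1 and 2 lower, and 8 and 2 without JQ1 replicate 1. MXD1, a partner of MAX that opposes MYC, had 12.1, 16.4, 19.4 and 17 against 6.14, 5.52, 4.7 and 5.36 CPM (1.58 ± 0.16). MXD4 (0.71 ± 0.11) and MAX (0.41 ± 0.11) were higher too, and MYCL (-0.90 ± 0.23) and MLX (-0.59 ± 0.16) were lower.

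Among 28 nucleolar factors of ribosome assembly, many of them known MYC targets, 9 were higher in JQ1 and 1 lower, and 12 and 4 without JQ1 replicate 1. The median, 0.20, became -0.01 with limma on log2(TPM + 1). Nucleolin, NCL, had 1342, 936, 968 and 1066 CPM with JQ1 and 593, 599, 500.4 and 588 with pinometostat (0.92 ± 0.14), and DMSO spanned 703 to 954. RRP12 (0.97 ± 0.16), BOP1 (1.02 ± 0.19) and FBL (0.46 ± 0.10), the fibrillarin gene, had DMSO between the compounds with no overlap. For RRP12 and BOP1, JQ1 replicate 1 was the highest library, and the differences without it were 0.80 and 0.78.

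The genes lowest in JQ1 relative to pinometostat included developmental regulators, zinc finger genes and membrane proteins, all at low levels. KCNJ8 (ENSG00000121361; chromosome 12, 21764955 to 21775581), a pore subunit of ATP-sensitive potassium channels, had 2.37, 3.76, 4 and 3.5 CPM with JQ1 and 26, 23.8, 26.6 and 21.3 with pinometostat. JQ1 was low in all 4 libraries, DMSO (19 to 26.3) overlapped with pinometostat, and the difference was -2.82 ± 0.17 (edgeR adjusted p = 3.1e-05). PRDM13 (ENSG00000112238; chromosome 6, 99606730 to 99615578), a zinc finger factor of neural development, had 1.36, 3.24, 2.5 and 2.65 against 13.8, 13.7, 15.4 and 13.5 CPM (-2.50 ± 0.21). Its DMSO libraries, at 10.5 to 13, were below all pinometostat libraries and above all JQ1 libraries.

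C3orf33 (-2.25 ± 0.13), the zinc finger genes ZNF239 (-2.24 ± 0.31) and ZNF484 (-1.95 ± 0.14), and ZBED8 (-2.09 ± 0.18) had that same order. ZBED8 was at 4.52 to 6.2 CPM with JQ1, 10.4 to 17.2 with DMSO and 19.4 to 30.7 with pinometostat. The homeobox gene NKX2-4 (-1.97 ± 0.19), the synaptic adhesion gene SLITRK3 (-1.95 ± 0.16), the Wnt antagonist DACT1 (-1.94 ± 0.19), the histidine methyltransferase gene METTL18 (-2.23 ± 0.20) and the glycogen phosphatase subunit PPP1R3B (-2.12 ± 0.22) followed. INHBE, an activin subunit, varied most within pinometostat, with 22.7, 5.69, 7.95 and 4.07 CPM against 1.79, 1.88, 1.45 and 2.6 with JQ1 (-2.37 ± 0.51, edgeR adjusted p = 0.00663). DMSO overlapped with the pinometostat libraries in 7 of these 12 lowest genes and in 9 of the 12 highest, and with the JQ1 libraries in 0 of both. All 24 kept their call and direction in each of 20 other settings. The settings reuse the libraries by which these genes were chosen, so this is no independent support.

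HOX genes, which set position along the body axis and are known targets of KMT2A complexes, were lower in JQ1 relative to pinometostat. Of 36 tested, out of 39, 24 were lower and 0 higher by edgeR, and 31 were lower without JQ1 replicate 1. All 36 differences were below 0, from -1.90 to -0.18, with a median of -0.73. HOXC11 had 4.95, 4.56, 3.2 and 4.13 CPM with JQ1, 9.66, 9.86, 9.63 and 9.94 with pinometostat and 9.99 to 11.5 with DMSO, a difference of -1.22 ± 0.15 (edgeR adjusted p = 0.000608). HOXB2 (-1.38 ± 0.20), HOXA6 (-1.25 ± 0.18) and HOXD8 (-1.21 ± 0.15) differed by similar amounts. In 21 of the 24 called genes the DMSO mean was nearer to pinometostat than to JQ1, as it was in 67.4% of all genes called lower.

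HOXA9 (ENSG00000078399; chromosome 7, 27162435 to 27175180), named above as a DOT1L target in leukaemia, had 19.5, 26.7, 26.6 and 24.7 CPM with JQ1, 37.2, 34.5, 36.2 and 35.2 with pinometostat and 37.2 to 42.5 with DMSO. JQ1 was the lowest group, pinometostat reached the lower edge of DMSO, and the difference was -0.55 ± 0.12 (edgeR adjusted p = 0.00684). Its promoter is printed because the cluster moved together, from RefSeq (GRCh38.p14, chr7:27165538-27165787, minus strand), 5′ to 3′, with matches on either strand to the TATA box (TATAAA), the E-box (CACGTG) and the CCAAT box (CCAAT) in capitals.
HOXA9: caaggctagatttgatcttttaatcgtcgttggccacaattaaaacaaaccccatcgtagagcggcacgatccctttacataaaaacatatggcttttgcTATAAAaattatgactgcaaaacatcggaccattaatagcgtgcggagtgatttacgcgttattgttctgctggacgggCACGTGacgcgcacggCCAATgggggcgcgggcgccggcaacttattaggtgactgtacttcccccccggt
CACGTG, the E-box, begins 71 bases before the start. It occurred in 41.2% of 17 HOX promoters matched and in 8.76% of the tested genes with a window, and CCAAT in 82.4% and 34.9%.

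The TALE cofactors, homeodomain proteins that bind DNA together with HOX proteins, did not move as a group. Of 11 tested, 3 were higher and 3 lower. MEIS1 had 9.47, 7.71, 8.7 and 8.22 CPM with JQ1 and 14.1, 14, 13.1 and 15 with pinometostat (-0.72 ± 0.12, edgeR adjusted p = 0.00181), and DMSO (13.4 to 15.3) overlapped with pinometostat. TGIF2 (-0.69 ± 0.10) and TGIF1 (-0.52 ± 0.16) were lower, and MEIS3 (0.73 ± 0.12) and PKNOX2 (0.58 ± 0.17; 12 of 20 other settings) were among the higher genes.

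Kidney developmental regulators were lower in JQ1 in 7 of 17 cases and higher in 2 (median -0.54), and in 10 and 3 without JQ1 replicate 1. WT1, a zinc finger factor of the kidney progenitor, had 0.718, 1.83, 1.65 and 1.3 CPM with JQ1, 2.96, 4.13, 4.41 and 4.59 with pinometostat and 4.81 to 6.17 with DMSO. DMSO was the highest group and JQ1 the lowest, without overlap, and the difference was -1.52 ± 0.27 (edgeR adjusted p = 0.00294). GATA3 (-0.84 ± 0.16), of the ureteric bud lineage, and SIX2 (-0.54 ± 0.14), of the nephron progenitor, also had DMSO above both compounds. EYA1 differed by -0.81 ± 0.16. CITED1 was higher in JQ1 (0.85 ± 0.18; 0.64 without replicate 1), as was FOXC1 (0.43 ± 0.12).

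Of 18 mesenchymal markers, 5 were higher and 1 lower, and 8 and 3 without JQ1 replicate 1. SNAI2, a zinc finger repressor of epithelial genes, had 68.6, 80.9, 89.2 and 80.7 CPM with JQ1 and 34.5, 35, 31.2 and 32.6 with pinometostat (1.26 ± 0.11, edgeR adjusted p = 0.000157), and DMSO (30.2 to 33.9) covered much of the pinometostat range. ZEB2, another such repressor, was lower (-1.15 ± 0.14). COL1A1 differed by 0.78 ± 0.22 (0.55 without JQ1 replicate 1; 16 of 20 other settings) and ACTA2 by 0.88 ± 0.13. The summed level of 7 fibroblast markers, 2 of them called, was 295 to 397 CPM with JQ1 and 178 to 316 with pinometostat, and its part in these differences was not tested. Among 12 neuronal markers, 3 were higher and 1 lower, and 5 and 2 of 13 without JQ1 replicate 1. NEFM, a neurofilament, had 597, 233, 222 and 232 CPM against 81.3, 136, 86.4 and 120.0 (1.60 ± 0.33; 1.12 without JQ1 replicate 1). SYP (0.52 ± 0.11) was higher and NEUROG2 (-1.28 ± 0.21) lower. INA (0.42 ± 0.14) passed too, but its groups overlapped and it kept its call in 9 of 20 other settings.

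**Figure D3:**
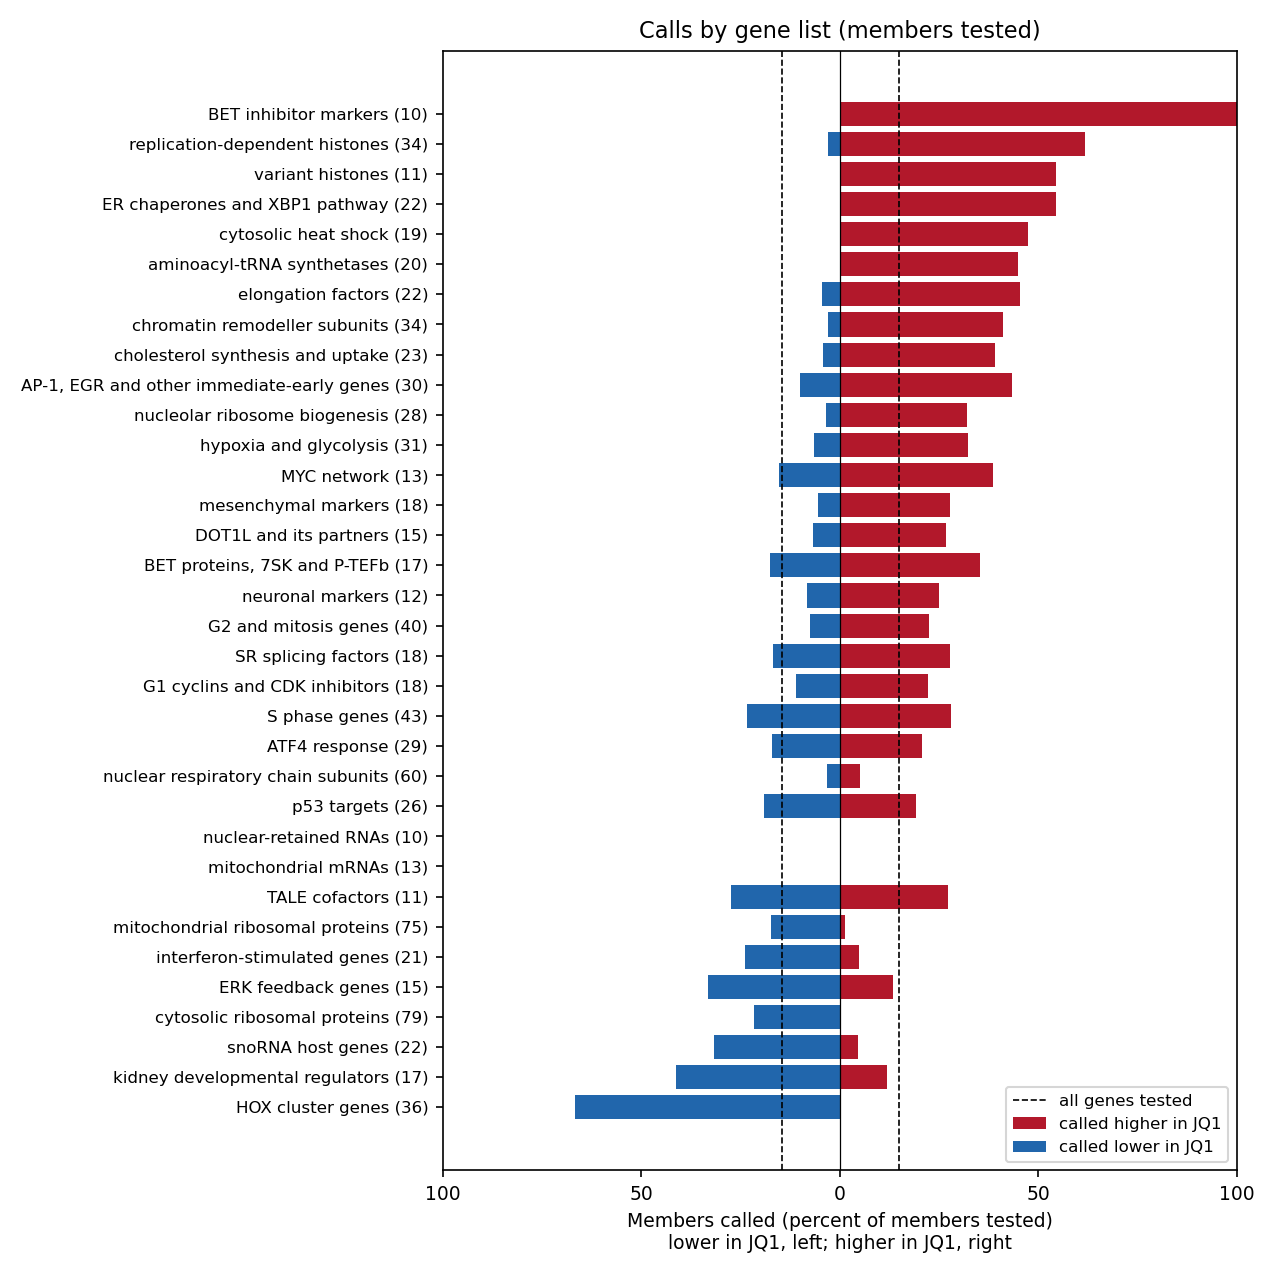
Percent of the tested members of each gene list called higher (right, red) or lower (left, blue) in JQ1 than in pinometostat, with the number tested in parentheses; dashed lines mark all genes tested, 14.9% and 14.5%. BET inhibitor markers and replication-dependent histones lie at the top and HOX cluster genes at the bottom.

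Cytosolic ribosomal protein genes, whose mRNAs are short and abundant, were lower in JQ1 in 17 of 79 cases and higher in 0 by edgeR (median -0.22, range -0.77 to 0.51). Without JQ1 replicate 1, 57 were lower and 1 higher (median -0.29). In all 17 called genes the DMSO mean was nearer to JQ1. RPL26 had 905, 967, 950.3 and 889 CPM with JQ1, 1616, 1632, 1595 and 1447 with pinometostat and 685 to 982 with DMSO. All pinometostat libraries were above all others, and the difference was -0.76 ± 0.10 (edgeR adjusted p = 0.000837). RPS13 (-0.71 ± 0.10), RPS27A (-0.71 ± 0.10) and RPS3A (-0.77 ± 0.12) had the same pattern. Summed over the list, these genes took 15.8% ± 0.858 of counts with JQ1 and 19.7% ± 0.523 with pinometostat (SD, n = 4; exact permutation test, two-sided, p = 0.0286; 0.0571 adjusted over 6 measures). Ribosomal protein genes have many processed pseudogenes, and the sources used here do not say how reads shared with these were counted.

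Mitochondrial ribosomal proteins, made in the cytosol for the ribosomes of the organelle, were lower in JQ1 in 13 of 75 cases (17.3%, near the 14.5% of all genes) and higher in 1 (median -0.07). Without JQ1 replicate 1 the counts were 35 and 8 of 75 (median -0.18), where 25% of all genes were called lower and 26% higher. MRPL46 (-0.71 ± 0.12) and MRPL15 (-0.57 ± 0.10) were lower and MRPL4 (0.54 ± 0.10) higher. Hosts of small nucleolar RNAs, whose introns carry guides for ribosomal RNA modification, were lower in 7 of 22 cases and higher in 1, SNHG12 (0.82 ± 0.22), with 16 and 1 without JQ1 replicate 1. SNHG20 had 5.31, 4.8, 4.5 and 3.5 CPM with JQ1 and 19.1, 11.5, 14 and 13 with pinometostat (-1.67 ± 0.19, edgeR adjusted p = 0.000437), and SNHG15 (-0.70 ± 0.17) was lower as well. In 6 of the 8 called host genes DMSO was nearer to JQ1.

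Aminoacyl-tRNA synthetases, which load amino acids onto tRNAs, were higher in JQ1 in 9 of 20 cases and lower in 0 by edgeR (median 0.38), and in 17 without JQ1 replicate 1. VARS, the valyl-tRNA synthetase, had 208, 188, 188 and 176 CPM with JQ1, 117, 106, 98.2 and 108 with pinometostat and 146 to 192 with DMSO (0.82 ± 0.10, edgeR adjusted p = 0.00061). Pinometostat was the low group, and DMSO overlapped with JQ1. FARSA (0.64 ± 0.09), AARS (0.61 ± 0.12) and WARS (0.57 ± 0.14) followed, and in all 9 called genes DMSO was nearer to JQ1.

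The ATF4 response, which raises amino acid supply under stress, had calls in both directions at shares near those of all genes. Of 29 genes, 6 were higher in JQ1 (20.7%) and 5 lower (17.2%), with a median of -0.01, and 10 and 10 of 30 without JQ1 replicate 1. PHGDH, the first enzyme of serine synthesis, had 1292, 1096, 1013 and 1122 CPM with JQ1, 668, 633, 611 and 625 with pinometostat and 892 to 1066 with DMSO (0.83 ± 0.11, edgeR adjusted p = 0.000798). ATF5 (1.24 ± 0.16), ATF4 itself (0.51 ± 0.14), ASNS (0.53 ± 0.18) and SHMT2 (0.42 ± 0.13) were also higher. TRIB3, a pseudokinase induced by ATF4, had 12.1, 12.3, 11.4 and 11 CPM with JQ1 against 41.9, 23.6, 22.9 and 21.8 with pinometostat and 32.4 to 36.8 with DMSO (-1.24 ± 0.21). The lipoprotein receptor VLDLR (-1.10 ± 0.20), ADM2 (-1.27 ± 0.33) and INHBE were lower, with JQ1 as the low group in TRIB3 and VLDLR.

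Chaperone genes of both compartments were higher in JQ1. Of 22 genes for ER chaperones and the XBP1 pathway, 12 were higher and 0 lower by edgeR (median 0.47), and 19 were higher without JQ1 replicate 1. HSPA5, the ER chaperone BiP, had 831, 660.2, 598 and 684 CPM with JQ1, 299.6, 367, 436 and 363 with pinometostat and 468 to 613 with DMSO (0.92 ± 0.15, edgeR adjusted p = 0.00161). SYVN1, the ubiquitin ligase of ER-associated degradation (0.89 ± 0.11), and CALR, calreticulin (0.74 ± 0.12), had DMSO between the compounds with no overlap. In 8 of the 12 called genes DMSO was nearer to JQ1. CCAAT occurred in 85.7% of 21 promoters of this list.

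Cytosolic heat shock genes were higher in 9 of 19 cases and lower in 0 by edgeR (median 0.48), and in 14 and 1 of 20 without JQ1 replicate 1. HSPA1B (chromosome 6, 31827735 to 31830255), which encodes the inducible HSP70, had 675, 672, 616 and 685 CPM with JQ1, 44.3, 201, 117 and 172 with pinometostat and 124 to 246 with DMSO (2.31 ± 0.37, edgeR adjusted p = 0.00157). The JQ1 libraries were closely spaced, while the pinometostat libraries spread from 44.3 to 201. HSPA1A, a near-identical copy, differed by 2.21 ± 0.34 at a much lower level, and reads of the pair cannot be assigned with certainty. DNAJB1 (1.13 ± 0.21), STIP1 (0.77 ± 0.10), HSF1 (0.76 ± 0.12) and BAG3 (0.71 ± 0.12), cochaperones and the regulator of the response, were higher too.

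Metabolic genes showed smaller differences. Of 23 genes for cholesterol synthesis and uptake, 9 were higher in JQ1 and 1, HSD17B7 (-0.58 ± 0.16), was lower (median 0.39), with 16 and 2 without JQ1 replicate 1. SQLE, the squalene epoxidase, had 458, 530.2, 590.4 and 486 CPM with JQ1, 229, 257, 312 and 294 with pinometostat and 272 to 299 with DMSO (0.92 ± 0.13, edgeR adjusted p = 0.00103), so that JQ1 was the high group. HMGCS1 (0.82 ± 0.16) and INSIG1 (0.81 ± 0.23) were higher too, and TM7SF2 differed by 1.11 ± 0.21, and by 0.85 without JQ1 replicate 1. Of 31 genes of hypoxia and glycolysis, 10 were higher, among them GPI (0.73 ± 0.10), HK1 (0.68 ± 0.12) and PKM (0.56 ± 0.13), enzymes of glycolysis. With JQ1 replicate 1 left out, 15 were higher and 6 lower. The 2 lower genes in the full set were VEGFA (-0.67 ± 0.15), the vascular growth factor, and the glucose transporter SLC2A3 (-0.88 ± 0.21). In 8 of these 12 called genes DMSO was nearer to JQ1.

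Transcripts of the mitochondrial genome gave no call and depended on a single library. MT-ND1 had 10786, 1731, 1505 and 1348 CPM with JQ1 and 2040.1, 1729, 2111 and 1805 with pinometostat (1.00 ± 0.61, edgeR adjusted p = 0.243), and without replicate 1 the difference was -0.32. The median of 13 mitochondrial mRNAs was 0.83, and -0.38 with all 13 called lower without that library. Nuclear respiratory chain genes had 3 higher and 2 lower of 60, and 6 and 28 without it, where 26% and 25% of all genes were called. Among 10 nuclear-retained RNAs, MALAT1 had 953, 58.9, 51.1 and 50.1 CPM with JQ1 and 66.1, 75.5, 59.2 and 85.6 with pinometostat (1.95 ± 0.90; -0.41 without replicate 1), and 0 were called by edgeR, against 9 lower without that library. The plot of list medians with and without this library shows where it mattered.

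**Figure D4:**
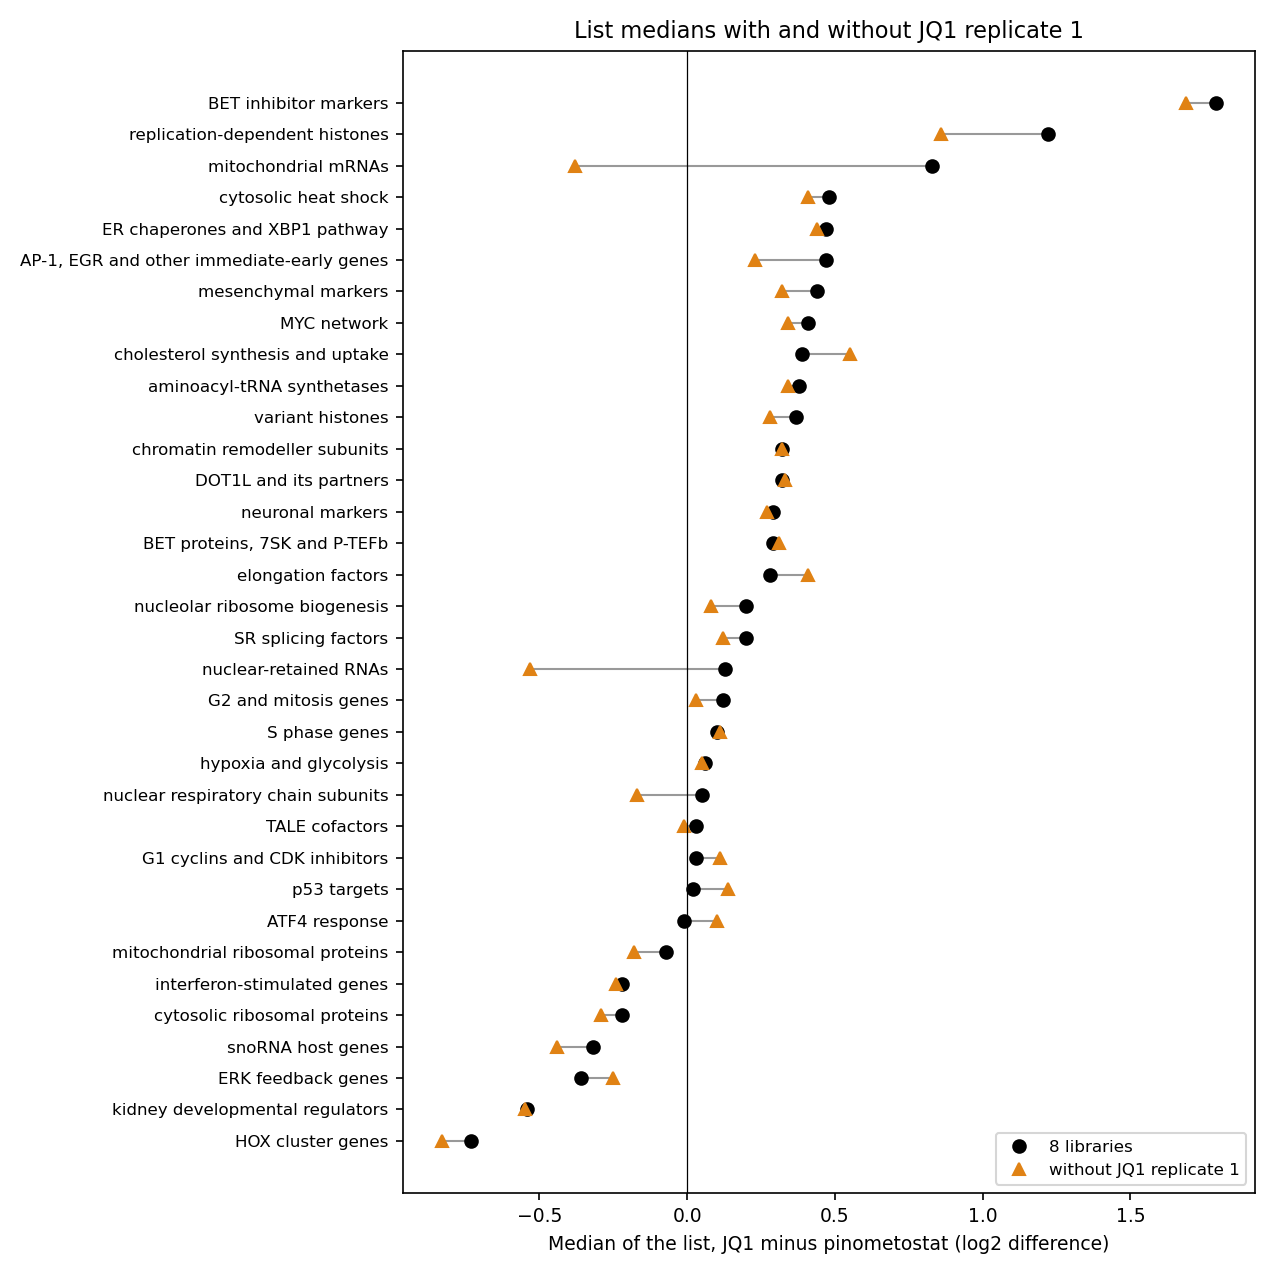
Median log2 difference (JQ1 minus pinometostat) of each gene list with all 8 libraries (black circles) and without JQ1 replicate 1 (orange triangles). Mitochondrial mRNAs move from 0.83 to -0.38 and nuclear-retained RNAs from 0.13 to -0.53, while HOX cluster genes and BET inhibitor markers stay on their side of 0.

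Cell cycle genes were divided. HEK293T is of limited use for p53 and E2F questions, since the large T antigen binds p53 and the retinoblastoma protein. Of 43 S phase genes, 12 were higher in JQ1 and 10 lower, and the median, 0.10, was -0.05 when scaled by library size alone, -0.01 with upper quartile scaling and -0.09 with limma on log2(TPM + 1). LIG1, the replicative DNA ligase, had 132, 117, 116 and 113 CPM with JQ1, 61.4, 61.5, 54.6 and 65.4 with pinometostat and 66.8 to 94.5 with DMSO (0.98 ± 0.10, edgeR adjusted p = 0.000337). POLD1 (0.93 ± 0.13), the catalytic subunit of polymerase delta, and MCM5 (0.61 ± 0.11), of the replicative helicase, were higher. E2F2, a transcription factor of S phase entry, had 13.1, 11.1, 8.9 and 9.34 CPM against 33.9, 26.9, 24 and 30.0 (-1.44 ± 0.16), and E2F8 (-1.20 ± 0.15) and GINS1 (-0.86 ± 0.13) were lower as well.

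Of 40 genes of G2 and mitosis, 9 were higher (22.5%) and 3 lower (7.5%), against 14.9% and 14.5% of all genes. Leaving out JQ1 replicate 1 gave 16 and 8. PLK4, the kinase of centriole duplication, was lower (-0.80 ± 0.11), while the spindle genes TPX2 (0.48 ± 0.10) and KIF2C (0.46 ± 0.09) were higher. CDKN2D, an inhibitor of cyclin-dependent kinases, had 16.6, 18.1, 18.2 and 18.9 CPM with JQ1 and 6.96, 6.1, 4.7 and 5.87 with pinometostat (1.60 ± 0.14, edgeR adjusted p = 0.000157), and CDKN2B differed by 1.3 ± 0.14. Of 18 G1 cyclins and CDK inhibitors, 4 were higher (22.2%) and 2 lower (11.1%), and 7 and 2 without JQ1 replicate 1. The lower genes were CDKN1B (-0.38 ± 0.13) and RBL1 (-0.40 ± 0.13), both near the threshold.

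Among 26 p53 targets, 5 were higher and 5 lower, 19.2% each and near the 14.9% and 14.5% of all genes. Leaving out JQ1 replicate 1 gave 10 and 6. FAS, the death receptor, had 1.08, 2.07, 2.75 and 2.42 CPM with JQ1, 9.36, 6.55, 7.14 and 8.44 with pinometostat and 4.01 to 5.47 with DMSO, which lay between with no overlap (-1.89 ± 0.25, edgeR adjusted p = 0.000691). MDM2 (-0.79 ± 0.10) and PHLDA3 (-1.17 ± 0.18) were lower too, and BAX (0.69 ± 0.14) and FDXR (0.63 ± 0.11) higher. Interferon-stimulated genes were lower in 5 of 21 cases (23.8%) and higher in 1 (4.76%), against 14.5% and 14.9% of all genes. With JQ1 replicate 1 left out, 6 of 21 were lower and 3 higher, where 25% and 26% of all genes were called. IFIT5, an RNA-binding antiviral protein, had 5.31, 3.67, 4.55 and 4.09 CPM against 14.3, 15.1, 16.6 and 13.7 (-1.77 ± 0.15, edgeR adjusted p = 0.000135), and IFIT1 (-1.38 ± 0.16) and TRIM21 (-1.48 ± 0.20) went the same way. IRF7 (1.85 ± 0.38) was higher, at 0.987 to 3.23 CPM with JQ1 and 0.435 to 0.557 with pinometostat. In all 6 DMSO was nearer to pinometostat.

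Subunits of chromatin remodelling complexes were higher in 14 of 34 cases and lower in 1, with a median of 0.32, and 22 and 4 without JQ1 replicate 1. SMARCA4, an ATPase of SWI/SNF (1.11 ± 0.24), CHD4 (0.69 ± 0.16), of the NuRD complex, SMARCD2 (0.52 ± 0.10) and ARID1B (0.51 ± 0.10) were examples. The lower member was YEATS4, a reader of acetylated histones, which had 35, 50.4, 52.2 and 52.3 CPM with JQ1, 119, 90.9, 107 and 87.3 with pinometostat and 58 to 83.3 with DMSO (-1.09 ± 0.16, edgeR adjusted p = 0.00101). Of 18 SR splicing factors and their kinases, 5 were higher and 3 lower. The kinases CLK4 (-1.03 ± 0.12) and CLK1 (-0.70 ± 0.14) were lower, with DMSO at 24.4 to 33.1 CPM for CLK1, near its JQ1 libraries (24.4 to 39) and below its pinometostat libraries (46.2 to 55.3). SRSF12 (-0.87 ± 0.11) was lower and SRSF4 (0.46 ± 0.11) higher.

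Shares of calls varied with gene type and exonic length, beside 14.9% higher and 14.5% lower of all genes tested. These classes were chosen after their values were seen and are described without a test. Of 13644 protein-coding genes tested, 17.6% were higher in JQ1 and 14.4% lower. Antisense genes (879 tested) were higher in 1.59% and lower in 16.7%, and lincRNAs (664 tested) in 1.81% and 18.2%. Their lower shares were near that of all genes, and their higher shares far below it. No source used here gives the strand setting of the counting, so antisense genes cannot be told from their partners. With genes in 5 bins of exonic length, the shortest bin (59 to 2285 bases) had 7.89% higher and 13.7% lower, and the longest bin (7704 to 205012 bases) 17.9% and 11.4%. The bins between had 17.7%, 15.9% and 13.7% lower, so the lower share did not fall steadily with length. By genomic span, the shortest bin had 11.1% higher and 15.2% lower, and the longest 13.8% and 8.98%. GGGCGG occurred in 78.1% of 1967 promoters of genes called higher, in 60% of 1762 promoters of genes called lower and in 67.4% of all with a window.

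**Figure D5:**
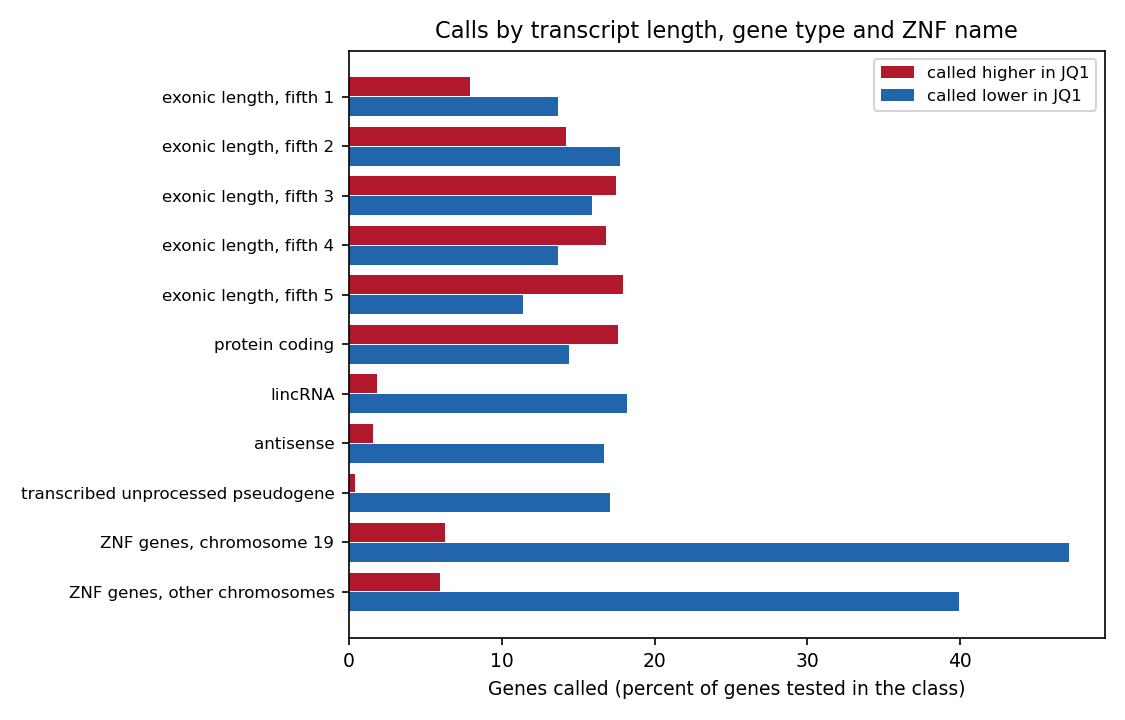
Percent of genes called higher (red) and lower (blue) in JQ1 than in pinometostat by 5 bins of exonic length (1 shortest, 5 longest), by annotated gene type and for genes whose symbol starts with ZNF. Non-coding types have few genes called higher, and ZNF genes have the most called lower, 47.1% on chromosome 19 and 39.9% elsewhere.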

How the data were processed

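RNA of 16 HEK293T samples was sequenced, and the 8 H2A samples with JQ1 or pinometostat were compared, grouped by their labels. Each sample came with the authors' gene-level counts in whole numbers, repeated in a table of the series (920000 of 920000 cells identical). The authors also deposited TPM values, which equal the counts per exonic length, scaled to a fixed sum. Aligner, counter, genome build and strand setting: not given in the sources used here. Start and end matched GENCODE 29 (GRCh38) for 96.3% of 56898 shared gene identifiers.

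Genes were kept with filterByExpr (minimum count 10, minimum total 15), scaled by TMM and tested with edgeR 4.0.16 (quasi-likelihood, two-sided, 8 libraries, 6 residual degrees of freedom, common dispersion 0.0386) in R 4.3.3. The standard error is the log2 difference divided by the square root of F. CPM values use TMM, and DMSO libraries were put on the same scale against the same reference library. Tested on simulated data (16197 genes), the fit found 19.4% of the genes altered 1.5 fold, 64.2% of those altered 2 fold and 89.4% of those altered 4 fold, and made 4 false calls. The simulation altered 67, 67 and 66 genes at these steps, far fewer than the 4820 called in the data. A smaller p-value was therefore needed for a call there, and these shares do not give the sensitivity of the contrast.

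The members, the 34 gene lists and the settings were chosen with earlier results of these data known. Named genes were the 12 highest and 12 lowest differences (adjusted p below 0.05, mean of at least 5 CPM, a symbol, groups apart), fixed BET, DOT1L and H2A genes, and the members of each list with the lowest adjusted p (at most 4). Other members are examples of a count, and some genes are not reported here. Lists were described by counts and medians, with no set test. Other settings were DESeq2 1.42.0, limma 3.58.1 (voom, with and without quality weights, and log2(TPM + 1)), other scalings and filters, 16 libraries, a replicate block, a threshold of 0.01, mitochondrial genes removed and each library left out. Promoters were matched by symbol to RefSeq (11884 tested genes), and figures drawn with matplotlib 3.10.9. Replicate pairs differed beyond sampling noise (smallest chi-square per degree of freedom 3.77).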

Additional observations from a re-analysis of the deposited data

Results flagged for a closer look

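For 161 of the named genes and the library shares, each group of 4 libraries was searched for a lowest or highest library whose gap to its neighbour exceeded Dixon's critical value as a share of the group's range. Chance marks about 1 in 20 groups, and 322 gene groups were searched. The criterion marked 40 values, of which 28 belonged to JQ1 replicate 1.

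In that library the mitochondrial share of counts was 16.5%, the share of the 10 most abundant genes 15.7% and the protein-coding share 98.1%. The mitochondrial mRNAs named next were far above the other JQ1 libraries: MT-ND1 at 10786, MT-CYB at 14157, MT-ND2 at 8485 and MT-ND6 at 6437 CPM. The nuclear-retained MALAT1 (953 CPM) and LUC7L3 (677 CPM) stood apart with them. MYC was far below, at 176 CPM, as were PKNOX2 at 12.8 and YEATS4 at 35.

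Among genes higher in JQ1 that were higher still in this library were HEXIM1 at 211, JUND at 791, GADD45B at 77.4 and IER5 at 160.3 CPM. The histone genes HIST1H2BD (24.8 CPM), H2AFX (506) and H1FX (736) did the same, and H2AFJ, which was not called, was at 63. Also highest there were RRP12 (76.9 CPM), BOP1 (326), CITED1 (371), NEFM (597), DUSP14 (72.1), TM7SF2 (72.8) and RUVBL2 (566). MRPL50, lower in JQ1, was at 61.3 CPM there, nearest to pinometostat.

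Pinometostat replicate 3 stood apart for PRDM13 (15.4 CPM), BRD3 (46), H2AFZ (1144), SUPT6H (59.9), NCL (500.4) and RPS27A (2003). Pinometostat replicate 1 did so for TRIB3 (41.9 CPM) and FARSA (219.9), and replicate 2 for TGIF2 (33.5). In the remaining JQ1 libraries the values were 83.2 CPM for BRD3 in replicate 2, 4.67 for ZEB2 in replicate 4 and 199 for TPX2 in replicate 4.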

How the results depend on the processing

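The number of genes called was 4820, and 9189 with limma-voom quality weights, 1827 with limma on log2(TPM + 1) and 2452 at a threshold of 0.01. Leaving out each library in turn gave 3370 to 8514, the highest without JQ1 replicate 1. For genes higher in JQ1 (2442) these values were 4503, 438 and 1219, 1308 with scaling by library size alone, and 1658 to 4337 with a library left out. For genes lower (2378) they were 4686, 1389 and 1233, and 1712 to 4177. DESeq2 called 5607. The share of called genes higher in JQ1 (50.7%) became 30.9% with library size alone, 34.2% with upper quartile scaling and 24.0% with TPM, settings that shift the median of all genes to -0.14, -0.10 and -0.14; with a library left out it was 48.8% to 53.1%. The mitochondrial difference was -1.28 to 3.21 percentage points with a library left out. The cause of these changes was not tested.

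Of 162 named genes, 150 were called in the main fit. Among these 150, 87 kept their call and direction in every one of the 20 settings that tested them. The call was lost by 63 with TPM and by 0 without JQ1 replicate 1. Differences changed sign for H2AFZ (-0.11 library size, -0.09 upper quartile, -0.01 with at least 50 counts, -0.16 TPM, -0.03 without JQ1 replicate 2, -0.00 without pinometostat replicate 1). With quality weights and without JQ1 replicate 1 they did so for MT-ND1 (-0.21, -0.32), MT-CYB (-0.25, -0.31), MT-ND2 (-0.31, -0.38), MT-ND6 (-0.29, -0.36), MALAT1 (-0.45, -0.41) and LUC7L3 (-0.24, -0.24). With each library left out the ranges were -0.03 to 0.12 for H2AFZ, -0.32 to 1.27 for MT-ND1, -0.31 to 1.2 for MT-CYB, -0.38 to 1.24 for MT-ND2, -0.36 to 1.15 for MT-ND6, -0.41 to 2.3 for MALAT1 and -0.24 to 0.93 for LUC7L3. List medians changed sign for nucleolar factors (-0.01 TPM), S phase (-0.05 library size, -0.01 upper quartile, -0.09 TPM), G2 and mitosis (-0.00 quality weights, -0.03 library size, -0.09 TPM) and SR factors (-0.00 TPM). With JQ1 replicate 1 left out, more medians changed sign. Mitochondrial mRNAs went from 0.83 to -0.38, nuclear-retained RNAs from 0.13 to -0.53 and nuclear respiratory chain genes from 0.05 to -0.17. The ATF4 response went from -0.01 to 0.1 and TALE cofactors from 0.03 to -0.01.

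With the replicate number as a block, 3718 genes were called (1825 higher, 1893 lower), and 4 named genes lost their call. Deviations of same-numbered libraries from their group means correlated at -0.045, 0.131, -0.017 and -0.154 over 10308 genes. Those of differently numbered libraries correlated at -0.124 to 0.127. With means of 4 libraries these deviations depend on each other, so they cannot decide whether the numbers pair the samples. Simulated differences of 1.5 fold were mostly missed, in a simulation with far fewer altered genes than the contrast called.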

Other observations

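Genes whose symbol starts with ZNF, most of which encode C2H2 zinc finger proteins, were often called lower in JQ1. The class was chosen after its values were seen, so its counts are a description without a test. Of 461 tested, 199 (43.2%) were lower and 28 (6.07%) higher, with a median difference of -0.49, against 14.5% and 14.9% of all genes. On chromosome 19, where many of these genes lie in clusters, 98 of 208 (47.1%) were lower, and 39.9% of 253 on other chromosomes. Without JQ1 replicate 1 the counts were 259 lower and 46 higher of the whole class. Genes named as antisense to another gene, with a symbol that ends in -AS and a number, were lower in 73 of 419 cases (17.4%) and higher in 5 (1.19%).

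In 25 genes the 12 libraries fell in the order JQ1, pinometostat, DMSO without overlap, and HIST1H2AC, SNHG12 and SRSF5 were among them. The order pinometostat, JQ1, DMSO was found in 9 genes and DMSO, JQ1, pinometostat in 5. DMSO, pinometostat, JQ1 was far more frequent, with 119 genes, and 91 of these were called lower in JQ1. HOXA10, HOXB8, HOXB9, HOXB13, HOXC10, HOXC11 and HOXC13 were among those with this order, as were WT1, SIX2 and GATA3.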
